A study of Ovis aries with 4 samples.

Results

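Levels of 5 genes by which astrocytes are known were followed in sheep striatum: SLC1A2, SLC1A3, AQP4, GJA1 and GFAP. They were chosen by symbol in the deposited gene lists, where each had 1 row (ENSOARG00020014083, ENSOARG00020013733, ENSOARG00020025374, ENSOARG00020021600 and ENSOARG00020025675) among 26478 listed genes. All 5 were found in all 4 libraries, and all 5 passed the filter on low counts. The tissue was frozen striatum, a deep brain region, from sheep aged 5 years, with no treatment, allele or strain named. Whole cells were freed with papain, an enzyme that digests the protein between cells, and nuclei by grinding tissue in a detergent buffer. Each kind has 2 libraries: replicate 1 pools sheep 1 and 2, and replicate 2 pools sheep 3 and 4, according to the sample titles. For the second suspension of cells the protocol text gives animals 2 and 3, so the pairing of libraries by animal rests on the titles. Because each library is a pool of animals, p-values measure only the spread between 2 pools per kind.

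Astrocytes clear glutamate from the space around synapses, buffer potassium and water, and are coupled to each other through gap junctions. SLC1A2 (EAAT2, or GLT-1) and SLC1A3 (EAAT1, or GLAST) are the main glial glutamate transporters. AQP4 is the water channel of astrocyte endfeet on blood vessels, GJA1 encodes the gap junction protein connexin 43, and GFAP encodes the intermediate filament by which astrocytes are commonly stained.

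The files hold unique molecular identifiers (UMIs), each of which marks 1 captured RNA molecule, per gene and barcode, where a barcode marks 1 droplet. The whole cells libraries held 1115058 and 19241918 UMIs, of which 88.7% and 86.9% were mitochondrial, against 70473292 and 51102420 UMIs with under 0.78% mitochondrial in the nuclei libraries. A minimum of 200 genes was reached by 68 of 2162 and 269 of 32500 barcodes of whole cells and by 8810 of 8815 and 8720 of 8723 barcodes of nuclei. Library levels are therefore given as CPM, here UMIs of a gene per 1000000 non-mitochondrial UMIs of the library. Class levels are CPM of all UMIs of the class. Any 2 libraries shared at most 0.997% of the barcodes of the smaller one. The counting program was version 6.0.1 for whole cells and 7.0.0 for nuclei, so its version and the kind of library cannot be told apart. Whether reads in introns were counted is not given in the sources used here.

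Summed over each library, the channel, the connexin and the filament gene were far lower in nuclei than in whole cells, while the levels of the transporter genes overlapped between the kinds. AQP4 stood at 317.5 and 341 CPM in whole cells and at 18.0 and 26.6 CPM in nuclei. GJA1 stood at 63.5 and 90.3 CPM in whole cells and at 2.79 and 4.04 CPM in nuclei. GFAP stood at 579 and 437 CPM in whole cells and at 30.7 and 45.6 CPM in nuclei. For each of these 3 genes both nuclei libraries lay below both whole cells libraries. Among the 15781 genes tested, 23.9% were separated in that direction and 75.9% in either direction. In sums of this kind, fewer cells of a type and less RNA per cell cannot be told apart.

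SLC1A2 was lowest in whole cells 1 and highest in whole cells 2, at 87.3 and 468 CPM, with nuclei 1 and 2 in between at 221 and 269.5 CPM. SLC1A3 stood at 143 and 513 CPM in whole cells and at 157 and 169 CPM in nuclei. The whole cells libraries differed from each other by 5.36-fold for SLC1A2 and 3.59-fold for SLC1A3, but by at most 1.42-fold for AQP4, GJA1 and GFAP. The nuclei libraries differed by at most 1.48-fold for any of the 5 genes. In whole cells 1 these levels rested on 11 UMIs of SLC1A2, 18 of SLC1A3, 40 of AQP4, 8 of GJA1 and 73 of GFAP.

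**Figure D1:**
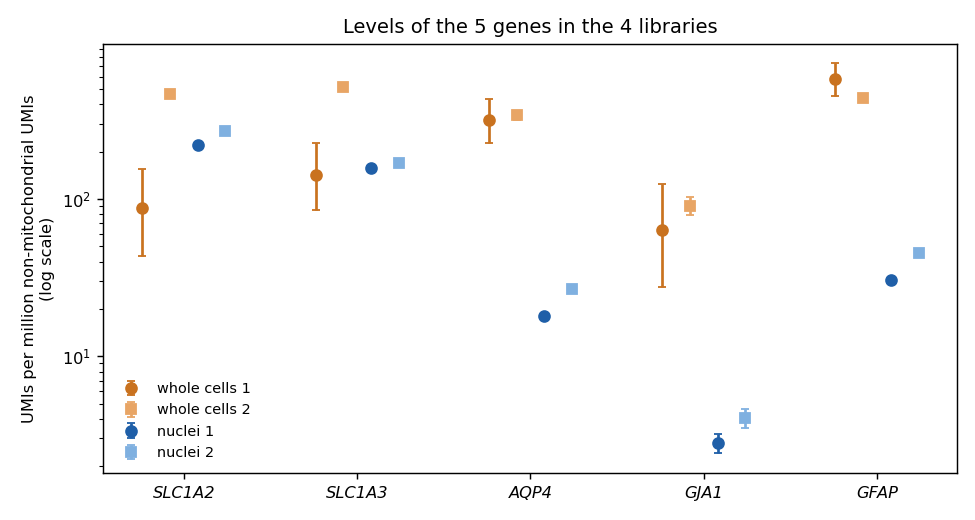
Level of each gene in each library, as CPM of non-mitochondrial UMIs on a log axis, with exact Poisson 95% intervals that cover counting error only. AQP4, GJA1 and GFAP lie far lower in both nuclei libraries (blue) than in both whole cells libraries (orange), while the nuclei values of SLC1A2 and SLC1A3 fall between those of whole cells 1 (circle) and whole cells 2 (square).

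The quasi-likelihood test of edgeR, with composition scaled by TMM and Benjamini-Hochberg adjustment over all tested genes, called 3 of the 5 genes, all lower in nuclei. It called 52.2% of all tested genes, 22.4% as lower and 29.8% as higher in nuclei, and the median log2 fold change of all tested genes was 0.61. GJA1 fell by 4.67 on the log2 scale (SE 0.44, edgeR adjusted p = 6.24e-10). AQP4 fell by 3.88 (SE 0.51, edgeR adjusted p = 1.93e-07) and GFAP by 3.66 (SE 0.52, edgeR adjusted p = 5.54e-07). These 3 genes stayed called and lower under all 10 other settings tried, and 2 of these moved their values furthest toward 0. GJA1, AQP4 and GFAP stood at -1.59, -0.89 and -0.68 with library size alone, when the median of all tested genes was 3.66. With barcodes of at least 200 genes alone they stood at -2.94, -2.44 and -1.28, when that median was 1.09.

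The transporter genes did not pass the test. The log2 fold change was -0.41 (SE 0.56) for SLC1A2 and -1.18 (SE 0.54) for SLC1A3, with edgeR adjusted p of 0.557 and 0.0671. Both values turn with library size alone, a scaling that counts mitochondrial UMIs. SLC1A2 was then called higher in nuclei at 2.58 and SLC1A3 at 1.81. The median of all tested genes moved from 0.61 to 3.66, and the calls from 4695 higher and 3536 lower to 12537 and 498. Measured from those medians, SLC1A2 lay at -1.01 under TMM and -1.08 under library size, and SLC1A3 at -1.79 and -1.86. With mitochondrial genes left out and library size alone, the median of all tested genes was 0.62. All 5 genes then lay below 0, with 4 called lower and 0 higher. The call also changes with the whole cells library left out, and so does the median over tested genes, at 0.78 without whole cells 1 and 4.37 without whole cells 2. Without whole cells 1 both genes were called lower, at -1.03 and -1.75, and without whole cells 2 SLC1A2 was called higher at 1.87, while SLC1A3 was at 0.58 with edgeR adjusted p = 0.332. Measured from those medians, SLC1A2 lay at -1.81 and -2.49 and SLC1A3 at -2.53 and -3.78.

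**Figure D2:**
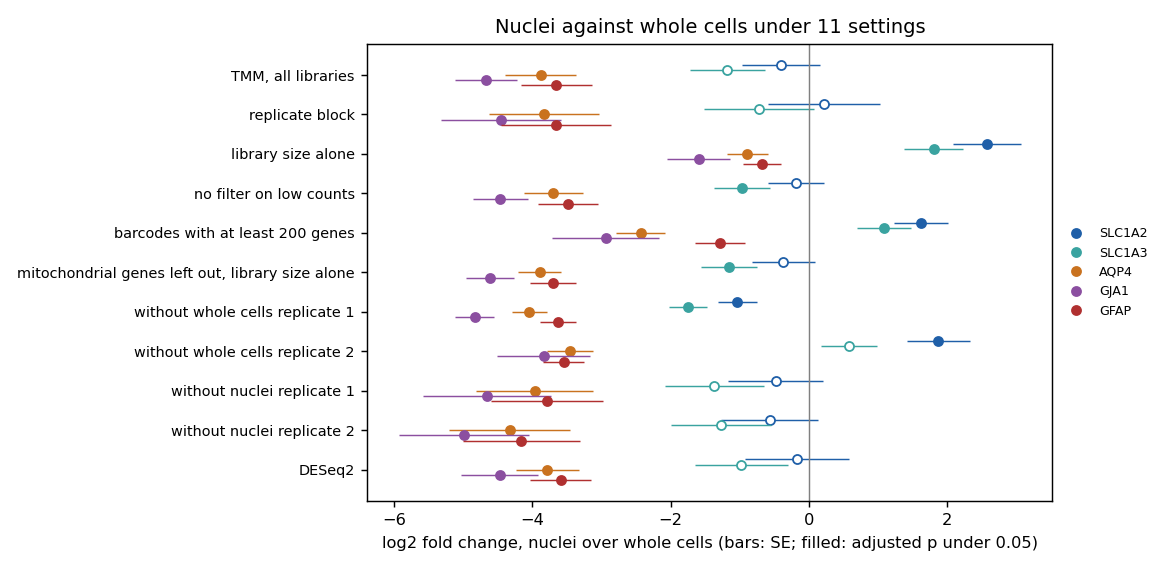
Log2 fold change of nuclei over whole cells (x axis, with SE) for each gene under the first fit and 10 alternatives (y axis). Filled points have an adjusted p under 0.05: AQP4, GJA1 and GFAP are filled and lie below 0 in every row, while SLC1A2 and SLC1A3 lie on both sides of 0.

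The make-up of the 5-gene signal is given as each gene's share of its UMIs. SLC1A2 gave 51.4% and 52.3% of all UMIs of the 5 genes in nuclei, against 7.33% and 25.3% in whole cells. SLC1A3 gave 36.6% and 32.8% in nuclei and 12% and 27.7% in whole cells. GFAP gave 7.15% and 8.86% in nuclei, against 48.7% and 23.6% in whole cells. AQP4 gave 4.18% and 5.17% in nuclei and 26.7% and 18.4% in whole cells, and GJA1 0.649% and 0.785% against 5.33% and 4.88%. The shares of a library sum to 100%, so a lower share of some genes raises that of the others. Ratios between pairs of genes within a library need no scaling to total counts. There were 6.64 and 0.935 GFAP UMIs per SLC1A2 UMI in whole cells and 0.139 and 0.169 in nuclei, whereas GFAP UMIs per AQP4 UMI numbered 1.71 in each nuclei library and 1.83 and 1.28 in the whole cells libraries.

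Few whole cells barcodes carried these genes as a group. GFAP was found in 65 of 2162 barcodes of whole cells 1 and in 1067 of 32500 of whole cells 2, with at most 3 and 6 UMIs in any one barcode. At least 2 of the 5 genes were present together in 11 and 359 barcodes of whole cells, against 1207 of 8815 and 1222 of 8723 barcodes of nuclei. Depth differed, with a median of 348 and 504 UMIs per barcode in whole cells and 2612 and 2042 in nuclei. Among barcodes with at least 200 genes, 3 of 68 (4.41%) and 24 of 269 (8.92%) had at least 2 of the genes in whole cells. In nuclei 13.7% and 14.0% did. In whole cells 2, 2.56% of the UMIs of the 5 genes came from barcodes with at least 200 genes, and in whole cells 1, 32% did. The barcode richest in them in whole cells 1 held 22 of their UMIs, among them 10 of AQP4, 6 of SLC1A3 and 4 of SLC1A2, and none of GFAP. Summing only barcodes with at least 200 genes left AQP4, GJA1 and GFAP lower in nuclei and put SLC1A2 and SLC1A3 higher, at 1.62 and 1.09 (edgeR adjusted p = 0.000197 and 0.0168). The median of all tested genes was then 1.09, so SLC1A2 lay 0.53 above it and SLC1A3 at it.

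In the nuclei libraries the counts were then divided by cell class. Nuclei that had 200 genes or more and no more than 5% of UMIs from mitochondria were clustered after the 8% with the highest doublet scores had been removed from each library, which left 8004 and 7717 nuclei. The 5 genes and the related genes described later were held out of the clustering and of the naming. A cluster was named from marker genes of each class, and one that could not be named is called by its leading genes. The astrocyte-like cluster held 475 nuclei (5.93%) and 510 nuclei (6.61%). All 19 astrocyte markers found by symbol were raised at least 2-fold in it over both libraries together, among them SOX9, FGFR3 and RORB, though ID4 had 66 UMIs in the class in nuclei 1 and 0 in nuclei 2. Since nuclei of 1 library are not replicates, class levels are a description, with no test.

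SLC1A2, SLC1A3, AQP4 and GFAP had their highest level in astrocyte-like nuclei in both libraries, among 11 classes with at least 20 nuclei in each. SLC1A2 reached 5208 and 4264 CPM there (4736 ± 668, SD, n = 2), 11.8 times the next class in nuclei 2 and slightly more in nuclei 1. GFAP reached 732 and 710 CPM (721 ± 15.3, SD, n = 2), AQP4 343 and 319 CPM (331 ± 17.3, SD, n = 2) and SLC1A3 2770 and 2101 CPM (2435 ± 473, SD, n = 2). GJA1 reached 64.1 and 45.3 CPM from 135 and 99 UMIs. GJA1 is the exception because a small cluster led by OTOS and ADAMTS1, in which endothelial and fibroblast markers were raised, had 65.4 CPM in nuclei 1 from 4 UMIs and 0 UMIs in nuclei 2.

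Among clustered nuclei, the astrocyte-like ones held most of the UMIs of each gene. They gave 84.6% and 82.7% of the SLC1A2 UMIs of all clustered nuclei and 85.4% and 84.5% of the GFAP UMIs. The shares were 69.1% and 68.0% for AQP4, 74.6% and 68.8% for GJA1 and 63.1% and 67.4% for SLC1A3. Summed over the 5 genes, the share was 76.1% and 77.1%. Barcodes left out of the clustering held UMIs too. Of 30054 and 26107 UMIs of the 5 genes in the nuclei libraries, 25255 and 21102 lay in clustered nuclei and 19208 and 16266 in astrocyte-like nuclei. For GJA1 in nuclei 2 these counts were 205, 144 and 99, so the astrocyte-like nuclei did not hold most of its UMIs in that library.

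**Figure D3:**
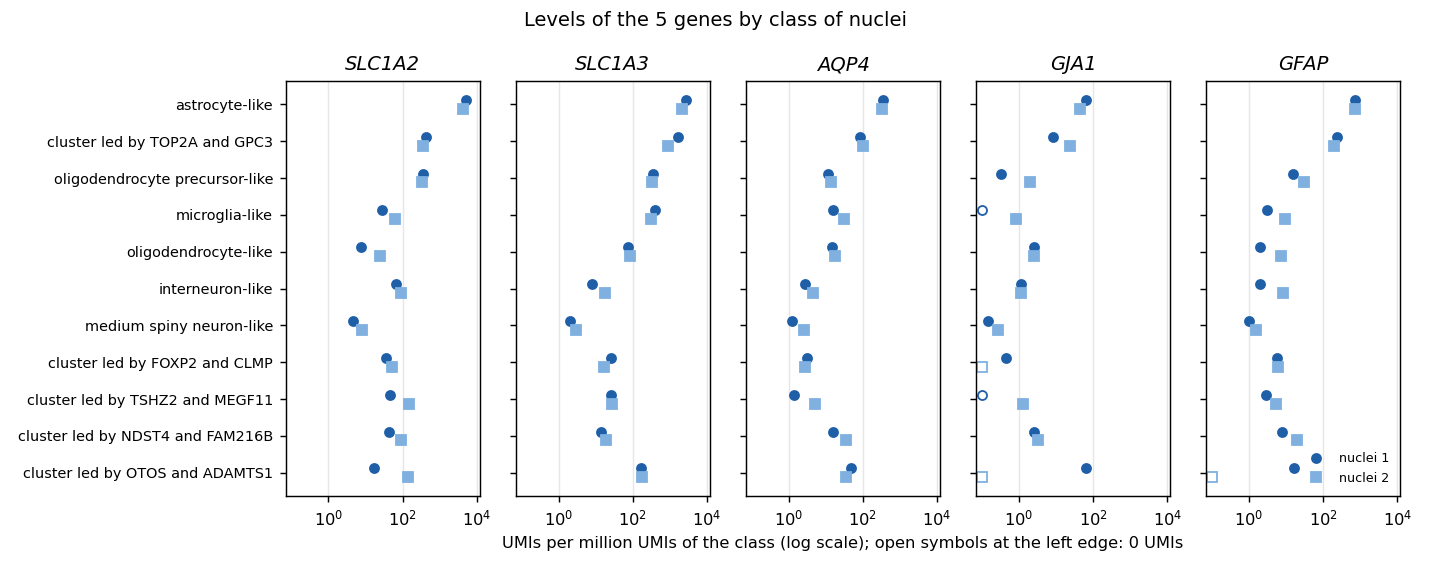
Level of each gene (x axis, CPM of all UMIs of the class, log scale) in the 11 classes or clusters of nuclei with at least 20 nuclei per library, with 1 symbol per nuclei library and open symbols for 0 UMIs. The astrocyte-like class is highest for 4 genes in both libraries, and SLC1A3 lies between 310 and 393 CPM in precursor-like and microglia-like nuclei, against 2770 and 2101 CPM in astrocyte-like nuclei.

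The transporter genes reached beyond this class in different ways. SLC1A2 came next in a cluster led by TOP2A and GPC3, at 433 and 363 CPM, and then in oligodendrocyte precursor-like nuclei, at 349 and 323 CPM. These neighbours lay apart, in that the values of the libraries did not overlap between them. From the fourth rank on, the SLC1A2 levels of 6 classes followed with overlapping neighbours, between 16.3 and 144 CPM. The lowest were oligodendrocyte-like nuclei, at 7.44 and 24.5 CPM, and medium spiny neuron-like nuclei, at 4.66 and 7.83 CPM, which overlapped.

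SLC1A3 was second in the TOP2A and GPC3 cluster, at 1622 and 879 CPM. Microglia-like nuclei followed at 393 and 310 CPM and oligodendrocyte precursor-like nuclei at 358 and 338 CPM, and these overlapped. Oligodendrocyte-like nuclei had 74.5 and 82.7 CPM. The named neuron classes came last, with 8.11 and 17.9 CPM in interneuron-like and 2.06 and 3.03 CPM in medium spiny neuron-like nuclei. The other named glial classes thus lay above both of them in both libraries. A cluster led by SLC17A6 and KITLG, left out of these ranks because nuclei 2 held 1 nucleus of it, had SLC1A3 at 192 CPM in nuclei 1, from 46 UMIs in 170 nuclei.

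Depth differs between classes, so detection was also compared after each nucleus was thinned to 1000 UMIs, leaving out shallower nuclei. Of the astrocyte-like nuclei, 13 and 38 were left out, 462 and 472 remained, and SLC1A3 was found in 87.4% and 81.6%, against 97.7% and 94.5% before thinning. SLC1A2 was found in 85.5% and 80.5%, GFAP in 44.8% and 50.4%, AQP4 in 27.7% and 29.7% and GJA1 in 6.06% and 6.78%. Before thinning, medium spiny neuron-like nuclei had a median depth of 31998 and 17905 UMIs. SLC1A2 was found in 9.94% and 11.97% and SLC1A3 in 4.49% and 4.88% of these 1157 and 1128 nuclei. At 1000 UMIs each of the 5 genes was found in under 1% of them, but thinning such deep nuclei lowers free RNA with the rest, so these shares are no background level for shallower classes. In microglia-like nuclei SLC1A3 was found in 30.1% (95% interval 26.7% to 33.7%, exact binomial) and 24.2% (20.8% to 27.8%), of 687 and 603 nuclei with 63 and 152 left out. Before thinning these shares were 41.2% and 31.8%, at a median depth of 1658 and 1391 UMIs. SLC1A2 was found in 2.18% and 4.64% of the same microglia-like nuclei and GFAP in 0.146% and 0.829%. Oligodendrocyte precursor-like nuclei had SLC1A3 in 30.7% and 28.3% and SLC1A2 in 24.9% and 23.9%.

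**Figure D4:**
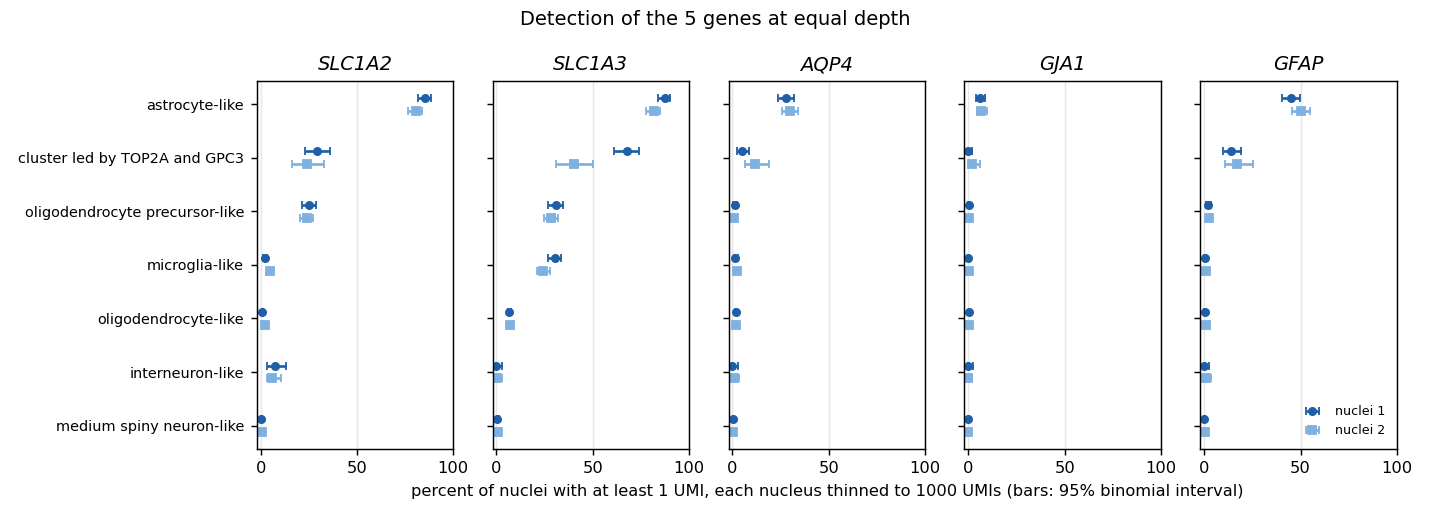
Percent of nuclei with at least 1 UMI of each gene (x axis) after thinning to 1000 UMIs per nucleus, for the 6 named classes and the cluster led by TOP2A and GPC3, with exact binomial 95% intervals that cover counting error only. SLC1A3 is found in 24.2% to 30.7% of microglia-like and oligodendrocyte precursor-like nuclei, and SLC1A2 in 23.9% and 24.9% of precursor-like but at most 4.64% of microglia-like nuclei.

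The ratio between the transporter genes varied over the classes, and some classes overlapped. There were 0.532 and 0.493 SLC1A3 UMIs per SLC1A2 UMI in astrocyte-like nuclei, 1.03 and 1.05 in oligodendrocyte precursor-like, 3.75 and 2.42 in the TOP2A and GPC3 cluster and 14.2 and 5.04 in microglia-like nuclei, the last on 37 and 72 SLC1A2 UMIs. In oligodendrocyte-like nuclei the ratio was 10.0 and 3.38, which overlapped both microglia-like nuclei and the TOP2A and GPC3 cluster, and in interneuron-like nuclei 0.124 and 0.197. In medium spiny neuron-like nuclei the ratio was 0.442 and 0.387, on 190 and 199 SLC1A2 UMIs. In microglia-like nuclei the astrocyte marker GPC5 was also high, at 10033 and 10329 CPM against 15964 and 11356 CPM in astrocyte-like nuclei, while the other 18 astrocyte markers summed to 1467 and 1983 CPM against 9117 and 7940 CPM. Without PREX2 and GLIS3 as well, which carried nearly all of the microglia-like sum, the remaining markers summed to 61.2 and 81.1 CPM against 5074 and 3703 CPM. Oligodendrocyte precursor-like nuclei also had high GPC5, at 9250.5 and 7996 CPM. Their other 18 markers summed to 1345 and 2061 CPM, and to 322 and 324 CPM without PREX2 and GLIS3. Whether free RNA, or doublets left in the microglia-like class, add to the SLC1A3 of that class was not tested.

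**Figure D5:**
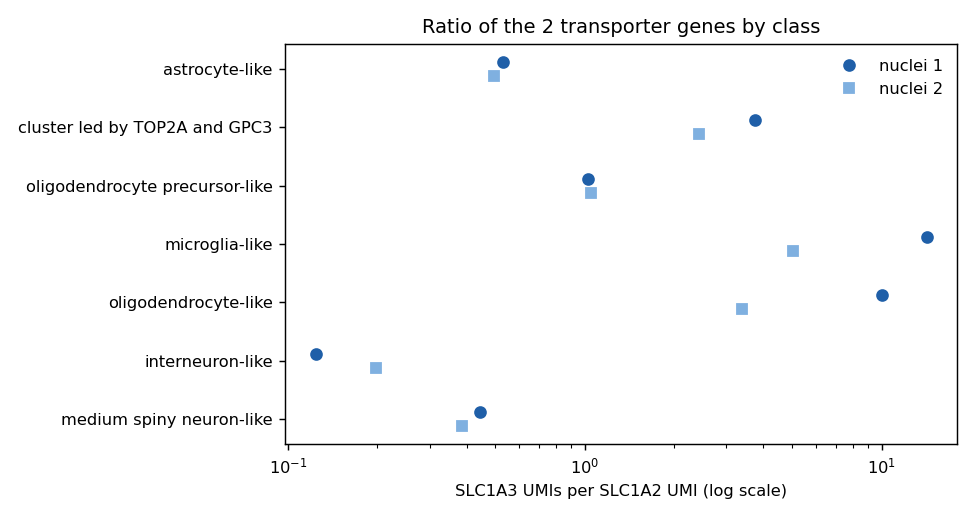
SLC1A3 UMIs per SLC1A2 UMI (x axis, log scale) in the 6 named classes and the cluster led by TOP2A and GPC3, with 1 symbol per nuclei library. Astrocyte-like nuclei lie at 0.532 and 0.493, precursor-like nuclei at 1.03 and 1.05, and microglia-like, oligodendrocyte-like and TOP2A and GPC3 nuclei farther right, with overlaps among them.

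The cluster led by TOP2A and GPC3, with 225 and 127 nuclei, ranked second, after the astrocyte-like class, for SLC1A2, SLC1A3, AQP4 and GFAP, and for GJA1 below the OTOS and ADAMTS1 cluster in nuclei 1 only, where that cluster had 4 UMIs. Its leading genes include TOP2A, NDC80 and NCAPG, which act in cell division, and 9 of the 19 astrocyte markers were raised in it. Over all its nuclei TOP2A had 47 and 71 UMIs, NDC80 33 and 54 and NCAPG 26 and 41. GFAP stood at 231 and 197 CPM there and AQP4 at 81.6 and 102 CPM, below the astrocyte-like levels by at least 3.17-fold for GFAP and 3.11-fold for AQP4 in each library. SLC1A2 was 11.8-fold lower there than in astrocyte-like nuclei in nuclei 2 and slightly more so in nuclei 1, and SLC1A3 1.71-fold and 2.39-fold lower. GJA1 rested on 4 and 6 UMIs. The cluster depends on the clustering: under 5 of 7 alternatives most of its nuclei, between 257 and 340 of up to 352, joined the astrocyte-like class, and under the others at most 2 did. Its rank as a class of its own holds only where it stays separate.

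SLC1A2 differed between the interneuron-like clusters. The interneuron-like cluster led by KANK4, in which KIT and PVALB were raised, had 74.9 and 103 CPM and at least 1 SLC1A2 UMI in 49.5% and 48.7% of its 97 and 152 nuclei, whose median depth was 17721 and 18257 UMIs. The interneuron-like cluster led by NOS1 and NPY had 24.2 and 14.9 CPM from 12 and 9 UMIs. Such levels were not particular to interneuron-like nuclei: an unnamed cluster led by FOXP2 and CLMP had 34.8 and 51.1 CPM, with a UMI in 37.5% and 34.9% of its nuclei, and one led by TSHZ2 and MEGF11 had 44.2 and 144 CPM. GFAP stood at 2.39 and 9.18 CPM and SLC1A3 at 8.59 and 19.7 CPM in the KANK4 cluster, and GFAP was found in 3 and 8 of its nuclei. After thinning, SLC1A2 was found in 7.30% and 6.15% of interneuron-like nuclei and SLC1A3 in 0 of 137 and 1 of 195 of the same nuclei. No background share was measured for this class, and the part of free RNA in its SLC1A2 was not tested.

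AQP4, GJA1 and GFAP were low outside the astrocyte-like class and the TOP2A and GPC3 cluster, except GJA1 in the OTOS and ADAMTS1 cluster. GJA1 had 65.4 CPM there in nuclei 1, from 4 UMIs, and 0 UMIs in nuclei 2. AQP4 came next in the OTOS and ADAMTS1 cluster at 49.0 and 35.6 CPM, from 3 UMIs and 1 UMI. The cluster led by NDST4 and FAM216B followed at 15.5 and 35.2 CPM and microglia-like nuclei at 15.7 and 31.6 CPM. AQP4 had 14.4 and 17.3 CPM in oligodendrocyte-like and 11.2 and 13.9 CPM in oligodendrocyte precursor-like nuclei. GFAP came next in oligodendrocyte precursor-like nuclei at 15.0 and 29.9 CPM, and each class from there to the tenth rank overlapped the next. GJA1 had 24 and 19 UMIs in all oligodendrocyte-like nuclei, or 2.51 and 2.63 CPM, and 0 UMIs and 1 UMI in microglia-like nuclei. After thinning, GJA1 was found in 0 of 687 microglia-like nuclei of nuclei 1, which allows a share of nuclei with a UMI of up to 0.437% (3 counts). Medium spiny neuron-like nuclei had the lowest mean of the libraries for each of the 5 genes. For SLC1A2 and GJA1 they overlapped the class before them, and for GJA1 other classes had 0 UMIs in 1 of the libraries.

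Within the astrocyte-like class the genes varied widely from nucleus to nucleus. SLC1A2 had a median of 16 and 10.5 UMIs per nucleus, a maximum of 170 and 239, and no UMI in 10.1% and 12.5% of nuclei. SLC1A3 had a median of 10 and 6 UMIs and was absent from 2.32% and 5.49%. GFAP had a median of 3 and 2 UMIs and was absent from 19.2% and 22.2%, at a median depth of 3714 and 2945 UMIs per nucleus. At 1000 UMIs per nucleus, at least 3 of the 5 genes were found together in 49.4% and 51.5% of astrocyte-like nuclei, exactly 2 in 39.8% and 33.7%, and none in 1.08% and 3.81%.

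The levels of the 5 genes were only weakly related across astrocyte-like nuclei at that depth. Spearman's rho over 462 and 472 nuclei, which share library and depth, was 0.33 and 0.24 for SLC1A2 with SLC1A3 and 0.06 and 0.12 for AQP4 with GFAP. For SLC1A2 with GFAP it was -0.24 in nuclei 1 and 0.0016 in nuclei 2. In nuclei 1 there were 378 SLC1A2 UMIs per 100 nuclei with GFAP and 515 per 100 nuclei without, and in nuclei 2 there were 448 and 465. AQP4 had 43.0 and 50.4 UMIs per 100 nuclei with GFAP and 34.5 and 32.1 per 100 nuclei without. Such sparse counts give no more than a description.

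The genes most like each of the 5 in their pattern over classes were found by Pearson's r of log2(CPM + 1) over 6 named classes in 2 libraries, 12 points in all that share libraries and depth, among 3375 genes. PAX6, SCARA3 and RORB were most like SLC1A2 (r = 0.96 each), and KIF27, ILK and TIPARP most like SLC1A3 (0.99, 0.99 and 0.98). VIM, BAG3 and MT2 were most like AQP4 (0.99, 0.97 and 0.97). NR2E1, AMOT and FBXO36 were most like GJA1 (0.98, 0.97 and 0.97) and FAM107A, GLI3 and ASB3 most like GFAP (0.97 each). RORB and GLI3 are among the markers that named the class, so their likeness is built in. Of the 5 genes themselves, SLC1A2 and GFAP were the most alike (r = 0.95) and SLC1A3 and GJA1 the least (r = 0.66).

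Related genes were read in 4 lists. Of all 38 related genes tested, 13 were called higher and 14 lower in nuclei by edgeR, where 29.8% of all tested genes were called higher and 22.4% lower, with a median log2 fold change of 0.63 against 0.61 for all tested genes. The counts given for each list are those of the first fit, with TMM scaling and all 4 libraries. With library size alone, which moves the median of all tested genes as given above, 11 of 11, 10 of 11 and 6 of 7 genes of the first 3 lists were called higher and 0 lower. In the glutamate handling list 4 of 11 tested genes rose, 1 fell and 6 were not called (median 0.91). With barcodes of at least 200 genes alone, 7 rose and 0 fell, when the median of all tested genes was 1.09. Without whole cells 1, 6 rose and 2 fell. SLC6A11, a GABA transporter, had 27.3 and 30.2 CPM in nuclei, against 0 and 4.78 CPM in whole cells, and rose by 2.53 on the log2 scale (SE 0.57, edgeR adjusted p = 0.000409). SLC1A1, the glutamate transporter EAAT3 known from neurons, stood at 15.9 and 21.5 CPM in whole cells and 101 and 114 CPM in nuclei and rose by 2.26 (SE 0.48, edgeR adjusted p = 0.000188). The count of 0 for SLC6A11 in whole cells 1 allows up to 23.8 CPM (3 counts), and SLC1A1 rested on 2 UMIs there.

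In the potassium, water and dystrophin complex list 5 of 11 tested genes rose, 3 fell and 3 were not called (median 0.69). With barcodes of at least 200 genes alone, 6 rose and 0 fell. With the replicate block, and without nuclei 1 or without nuclei 2, 2 rose and 1 fell, and with no filter on low counts 5 of 14 rose and 1 fell. Without whole cells 2, 4 of 13 rose and 0 fell. SNTB1, a syntrophin, had 0 and 4.78 CPM in whole cells and 57.8 and 85.2 CPM in nuclei and rose by 3.83 (SE 0.58, edgeR adjusted p = 1.58e-06). ATP1B2, a sodium pump subunit of glia, had 7.94 and 21.9 CPM in whole cells, from 1 and 55 UMIs, and 1.57 and 1.97 CPM in nuclei, and fell by 3.59 (SE 0.55, edgeR adjusted p = 1.95e-06), a call lost under 3 of 10 alternatives. TRPV4, a calcium-permeable channel, had 7.94 and 0.796 CPM in whole cells, from 1 and 2 UMIs, and 10.2 and 6.29 CPM in nuclei, so the kinds overlapped. Its call (2.61, edgeR adjusted p = 0.0175) was lost under 5 of 10 alternatives. The potassium channel gene KCNJ16 had 0 and 3 UMIs in the nuclei libraries and was not tested, and KCNJ10 was not found by symbol.

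In the gap junction and adhesion list 4 of 7 tested genes rose, 1 fell and 2 were not called (median 1.35). With the replicate block, 2 rose and 1 fell, and without nuclei 1 or without nuclei 2, 2 of 6 rose and 0 fell. Without whole cells 2, 3 of 9 rose and 0 fell. CTNNA1 and CDH2, parts of adherens junctions, rose by 5.18 and 2.86 (edgeR adjusted p = 5.78e-08 and 3.28e-05). CTNNA1 had 7.94 and 3.58 CPM in whole cells and 134 and 185 CPM in nuclei. The connexin gene GJC1 had 0 and 3.18 CPM in whole cells, from 0 and 8 UMIs, and 0.114 and 0.296 CPM in nuclei, so the kinds overlapped, and fell by 4.01 (SE 0.92, edgeR adjusted p = 0.000448), a call made under 3 of 10 alternatives. It was lost with library size alone (-0.88) and without whole cells 2, which left whole cells 1 with 0 UMIs, DESeq2 gave no adjusted p, and under 4 the gene did not pass the filter. GJB6, the other connexin gene that astrocytes are known for, was not tested, with 1 UMI in all clustered nuclei.

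The filament list moved one way: 9 of 9 tested genes fell, with a median of -3.33, where 22.4% of all tested genes fell. With library size alone 4 of the 9 were called lower, 1, the neuronal filament gene INA, was called higher at 1.16 (edgeR adjusted p = 0.0296), and 4 were not called. Without whole cells 2, 5 were called lower and 4 not called. VIM, the vimentin gene, stood at 47.6 and 695 CPM in whole cells and 7.04 and 9.23 CPM in nuclei and fell by 5.78 (SE 0.76, edgeR adjusted p = 1.7e-07). The neurofilament genes NEFM and NEFL fell by 4.45 and 4.09 (SE 0.48 and 0.61, edgeR adjusted p = 6.33e-09 and 1.17e-06). NEFL stood at 167 and 624 CPM in whole cells and 21.7 and 30.7 CPM in nuclei. These neuronal filaments are known from neurons and not from astrocytes, so the list holds genes of several cell types.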

How the data were processed

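The authors deposited raw UMI counts per gene and barcode for each library, made with Cell Ranger 6.0.1 (whole cells) and 7.0.0 (nuclei) per the file headers. Cell Ranger 2.1.1 and 6.0.1 and STAR 2.7.2a are named in the submitters' processing notes. Build, annotation and the handling of introns are not given in the sources used here, so no coordinates or gene lengths are used. A ratio or share of genes is compared only between libraries or classes and does not show which gene is expressed more. The 5 genes and the gene lists were chosen with earlier results of these data known.

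Counts were summed over all barcodes of a library and tested with edgeR 4.0.16 in R 4.3.3 (quasi-likelihood, TMM, filterByExpr, Benjamini-Hochberg adjustment at 0.05); DESeq2 1.42.0 was an alternative. On simulated counts for this comparison (15680 genes), the test called 49.3% of genes with a 4-fold change, 95.1% with a 16-fold change and 3 of 15528 unchanged genes. The simulated libraries shared the same mean profile and a fixed spread, with few genes changed. In the data, TMM factors ran from 0.314 to 2.92 and 52.2% of genes were called. The simulated rates therefore need not hold for the data. Same-pool libraries deviated from their group means with a correlation of -0.0478 over 1791 genes; the pairing comes from the titles.

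Nuclei were clustered with scanpy 1.11.5 (10000 UMIs, log scale, 2000 variable genes, 30 components, 15 neighbours, Leiden resolution 0.5). Scrublet's own threshold called 390 and 0 nuclei, so it did not work in nuclei 2, and the 8% with the highest scores were removed instead (696 and 671). A cluster took a class's name with at least 3 markers raised 2-fold in at least 5% of nuclei, at least 2 more than any other class, and 1 of them among its 10 leading genes. This rule was set after the clusters were seen. Named related genes are the 3 largest calls of each list, of which some are not reported here. Intervals are exact 95% intervals, the limit for a count of 0 is 3 counts, and both cover counting error only.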

Additional observations from a re-analysis of the deposited data

Results flagged for a closer look

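SLC1A2 was higher in nuclei in one animal pool and lower in the other, and the values of SLC1A3 had opposite signs, with a counting interval that includes 0 in the first pool. In the pool of sheep 1 and 2 the level in nuclei over that in whole cells (log2 ratio of CPM of non-mitochondrial UMIs) was 1.34 for SLC1A2 and 0.14 for SLC1A3. In the pool of sheep 3 and 4 it was -0.80 for SLC1A2 and -1.60 for SLC1A3. With 1 library of each kind per pool, this difference between the pools was not tested.

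The ratios in the pool of sheep 1 and 2 rest on 11 and 18 UMIs in whole cells 1, and their counting intervals run from 0.50 to 2.34 for SLC1A2 and from -0.52 to 0.89 for SLC1A3. An alternative chosen after seeing the data left out the barcode of whole cells 1 that held the most UMIs of the 5 genes, and gave 1.99 and 0.72. AQP4, GJA1 and GFAP were lower in nuclei in both pools, at -4.14 and -3.68, -4.51 and -4.48, and -4.24 and -3.26.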

How the results depend on the processing

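Of the 5 genes, 3 were called by edgeR; with library size alone or with barcodes of at least 200 genes alone 5 were (3 lower, 2 higher), and leaving out 1 library gave 3 to 5. SLC1A2 turned to 0.22 with the replicate block, 2.58 with library size alone, 1.62 with barcodes of at least 200 genes and 1.87 without whole cells 2, when the median of all tested genes was 0.75, 3.66, 1.09 and 4.37. SLC1A3 turned to 1.81, 1.09 and 0.58 under the last 3. It was called lower, as the fourth gene, with no filter on low counts (-0.96). The same call was made with mitochondrial genes left out and library size alone (-1.15). Leaving out 1 library gave -1.03 to 1.87 for SLC1A2, -1.75 to 0.58 for SLC1A3 and -4.08 to 6.01 for GJC1. With the replicate block 3 of the 5 genes and 18 related genes (27 without it) were called, and all calls went from 8231 to 5471. All calls numbered 13035 with library size alone, 4864 without whole cells 2 and 5438 without nuclei 2. Called related genes ranged from 17 to 32 when 1 library was left out, and the highest value of GJC1 (edgeR adjusted p = 0.893) came without whole cells 2, when its remaining whole cells library had 0 UMIs. The cause of the other changes was not tested.

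Of the UMIs of the 5 genes in clustered nuclei, the percent in astrocyte-like nuclei was 76.6 as a mean of the libraries. It was 74.4 at Leiden resolution 1.0, 79.5 with 4000 variable genes, 69.2 with doublets kept and 70.8 with Scrublet's own threshold. With at least 500 genes it was 79.7, and with at most 20% mitochondrial UMIs 77.7. The astrocyte-like percent of nuclei (6.27) was 7.89, 8.31, 7.65, 8.06 and 7.48 under the last 5. Adding the cluster led by TOP2A and GPC3, chosen after seeing the data, gave 79.8 and 8.5. Leaving out 1 library gave 76.1 to 77.1 and 5.93 to 6.61. The number of the 5 genes highest in astrocyte-like nuclei in both libraries was 4 or 5 under every clustering tried. With 500 UMIs per nucleus, 25.1% instead of 50.4% of astrocyte-like nuclei had at least 3 of the genes, since fewer molecules were drawn.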

Other observations

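A pair of related genes that are textbook astrocyte genes had their highest level elsewhere. These genes were picked after their values were seen. GLUL, which makes glutamine from glutamate, was highest in oligodendrocyte-like nuclei, at 302 and 419 CPM against 186 and 213 CPM in astrocyte-like nuclei. VIM was highest in the small cluster led by OTOS and ADAMTS1, at 262 and 249.5 CPM from 16 and 7 UMIs. In astrocyte-like nuclei it stood at 81.2 and 79.6 CPM, from 171 and 174 UMIs.

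Of all 14126 genes with at least 30 UMIs in both libraries, 635 (4.50%) were highest in astrocyte-like nuclei in both. Of the related genes among them, 4 of 11 in the glutamate handling list were highest in astrocyte-like nuclei in both libraries: SLC38A3, SLC7A11, SLC6A11 and GLUD1. In the potassium, water and dystrophin complex list 5 of 11 were, among them DTNA, SLC4A4, ATP1B2 and MLC1. DTNA, a partner of the dystrophin complex at the endfeet that hold AQP4, stood at 3238 and 2539 CPM. In the gap junction and adhesion list 1 of 6 was, HEPACAM, and in the filament list 0 of 9.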
